A study of Mus musculus with 10 samples.

Results

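The expression of 10 genes that are induced by extracellular signal-regulated kinase (ERK) signalling was followed through the chemical reprogramming of mouse embryonic fibroblasts (MEFs) into cells resembling extraembryonic endoderm (XEN). They were chosen by name from the 23197 genes of a single-cell count table. They are the phosphatases *Dusp4*, *Dusp5* and *Dusp6*, the pathway inhibitors *Spry1*, *Spry2*, *Spry4* and *Spred1*, and the transcription factors *Etv1*, *Etv4* and *Etv5*. All 10 had a row in the table, but *Dusp5* was hardly detected, with 11 UMIs in all kept cells. A unique molecular identifier (UMI) marks 1 captured RNA molecule.

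The MEFs came from ICR mouse embryos from which head, limbs and viscera had been removed. Except for the untreated MEFs (d0), all cells had been cultured with the cocktail C6FAE. It consists of CHIR99021, an inhibitor of the kinase GSK3, RepSox, an inhibitor of the TGF-beta receptor ALK5, Forskolin, which raises cyclic AMP, AM580, a retinoic acid receptor agonist, and EPZ004777, an inhibitor of the methyltransferase Dot1L. The methods of the study also list basic fibroblast growth factor (FGF), a ligand that acts through ERK, in the reprogramming medium but not in the MEF medium. They name valproic acid, a histone deacetylase inhibitor, beside the cocktail in that medium as well, which the labels do not. The base medium differed as well, and a serum replacement and 2-mercaptoethanol were added. So the ligand, any valproic acid, these changes of medium and the cocktail cannot be told apart in any comparison with d0. Cells were picked by hand on days 1, 2, 3, 4, 5, 6, 8, 12 and 20, and the cells named d8c and d12c were taken from picked colonies. The meaning of the letter in the day 6 name (d6p) is not given in the sources used here.

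Growth factors such as FGF act through receptor tyrosine kinases, RAS and a chain of kinases that ends in ERK. ERK then induces genes whose products shut the pathway off at several levels: DUSP phosphatases remove phosphate from ERK, while Sprouty and SPRED proteins act above it, near RAS. *Etv1*, *Etv4* and *Etv5* encode the PEA3 group of ETS transcription factors, which are well-known targets of FGF signalling. The mRNAs of these genes are therefore widely used as readouts of ERK signalling, although here only the mRNAs were measured.

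The table named each cell by time point and a running number but not by the sample it came from, so it was treated as 1 sample and no test between groups was possible. Of 808 cells, 670 passed a minimum of 4000 detected genes, between 20 cells at d8c and 86 at d6p. Their median depth was lowest at d20 (195480 UMIs) and highest at d2 (1055206 UMIs). Levels are UMIs of a gene per 1000000 UMIs of the cell (CPM). Intervals on summed UMIs (exact Poisson) and on shares of cells (exact Clopper-Pearson) are 95% intervals and cover counting error only, not the spread between cultures. The 7 fibroblast markers (*Col1a1* among them) had a median summed level of 2907 CPM at d0 and 45.1 CPM at d20. The 7 XEN markers (*Sox17* and *Gata4* among them) had 44.7 CPM at d0 and 1387 CPM at d20. At d12 cells not taken from colonies kept the fibroblast markers at 6860 CPM, with XEN markers at a median of 19.5 CPM and up to 2601 CPM in the highest cell. Of 4 XEN markers tested there, *Sox17*, *Gata4* and *Lama1* were higher than at d0 and *Dab2* was lower, by the rule for calls given below. For the sum of the 4 macrophage markers, group medians lay between 0 and 4.33 CPM, with single cells of up to 412 CPM at d8c. Among these markers, *Ptprc* was at 0 in all groups but d0. By the rule for calls given below, *Cd68* was higher at d3 and *Csf1r* at d12 than at d0. The summed level of the 3 skeletal muscle markers had group medians between 0 and 11.3 CPM, with single cells of up to 53411 CPM at d12c.

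In the mm9 genome used for the deposited counts, *Dusp4* lies on chromosome 8 (chr8:35870351-35882948), *Dusp6* on chromosome 10 (chr10:98725865-98730122), *Spry1* on chromosome 3 (chr3:37538869-37543520) and *Spry2* on chromosome 14 (chr14:106291166-106296036). *Spred1* spans chr2:116947110-117008015, *Etv1* chr12:39505967-39594802, *Etv4* chr11:101631056-101646685 and *Etv5* chr16:22381382-22439792. These are whole genes of the GENCODE M1 annotation, and the counts were per gene, not per transcript.

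Promoters were found for 7 of the 10 genes in RefSeq (GRCm38.p6), and those of *Dusp4*, *Spry4* and *Etv4* were not in the table. Those of *Dusp6* and *Etv5*, which were both high in part of the d4 cells and at d8c, and of *Spry1*, whose course was unlike that of the others, are shown over the 250 bases before the start of transcription. Capitals mark GGAAG, a form of the core bound by ETS factors, on either strand (CTTCC on the strand shown). Other forms of the core were not marked.
Dusp6 (chr10:99262981-99263230, plus strand): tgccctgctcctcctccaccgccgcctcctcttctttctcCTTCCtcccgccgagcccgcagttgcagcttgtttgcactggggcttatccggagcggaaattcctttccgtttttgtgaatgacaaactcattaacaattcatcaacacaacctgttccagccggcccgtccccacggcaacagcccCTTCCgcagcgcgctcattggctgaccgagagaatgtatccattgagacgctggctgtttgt
Etv5, first start (chr16:22439571-22439820, minus strand): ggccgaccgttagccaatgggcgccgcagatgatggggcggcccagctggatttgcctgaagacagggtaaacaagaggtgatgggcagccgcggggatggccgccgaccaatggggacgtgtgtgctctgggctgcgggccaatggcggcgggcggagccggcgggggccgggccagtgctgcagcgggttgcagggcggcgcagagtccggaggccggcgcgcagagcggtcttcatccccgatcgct
Etv5, second start (chr16:22438369-22438618, minus strand): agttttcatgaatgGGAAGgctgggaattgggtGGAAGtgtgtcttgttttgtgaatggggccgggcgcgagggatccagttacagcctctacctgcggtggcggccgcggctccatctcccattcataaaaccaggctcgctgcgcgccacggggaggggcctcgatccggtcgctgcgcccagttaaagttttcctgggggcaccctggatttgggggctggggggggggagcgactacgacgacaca
Spry1 (chr3:37639697-37639946, plus strand): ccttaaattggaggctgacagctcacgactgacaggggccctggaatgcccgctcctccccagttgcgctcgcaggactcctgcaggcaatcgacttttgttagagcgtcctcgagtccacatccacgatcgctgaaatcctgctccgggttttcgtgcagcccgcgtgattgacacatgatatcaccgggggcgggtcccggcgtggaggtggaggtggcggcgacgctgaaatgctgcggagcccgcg
The *Dusp6* promoter held GGAAG at 210 and 62 bases before the start, and the second *Etv5* start at 236 and 217. The first *Etv5* start and *Spry1* had no match to GGAAG, which leaves out other forms of the core. GGAAG is short, and 64.1% of the 32851 promoters of the table held it in a window of the same length. Longer motifs were also searched on both strands: the ETS motif CCGGAAG (6.91% of promoters, containing the core), the cyclic AMP response element TGACGTCA (1.55%) and the AP-1 motif TGANTCA (6.75%). None of these 3 was found in the windows of the 7 genes, which says only that these letters are not there.

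**Figure D1:**
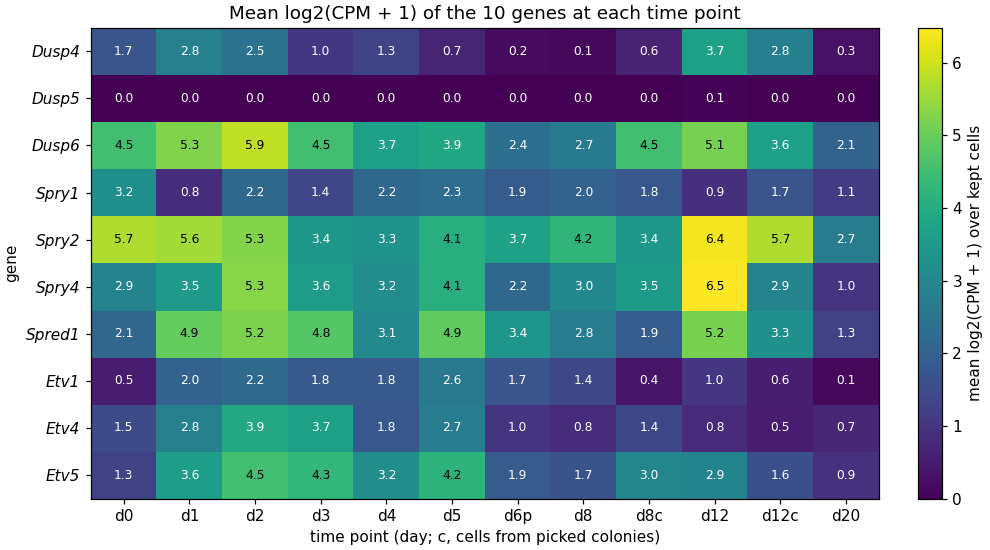
Mean log2(CPM + 1) over kept cells of each of the 10 genes (rows) at the 12 time points (columns); a lighter colour is a higher mean. *Etv4* and *Etv5* are highest at d2, *Spry4* and *Spry2* at d12, and d20 has the lowest mean of 6 genes.

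The 10 genes did not move as 1 block. Summed over the genes, the mean level was 289.5 CPM at d0, rose to 417 CPM at d2, fell to 166 CPM at d8, reached its highest value of 541 CPM at d12 and was lowest at d20, at 102 CPM. The median cell had UMIs of 5 of the genes at d0, 8 at d2, 7 at d12 and 2 at d20. After each cell had been thinned to 50000 UMIs, the medians were 3, 6, 4 and 1, in the same order.

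*Dusp6* encodes a cytoplasmic phosphatase that is selective for ERK. Its CPM at d0 ran from 0 in the lowest cell over a median of 28.8 to 352 in the highest, with a mean of 51.0 CPM. At d2 the lowest, median and highest cell had 0, 75.5 and 588 CPM, with a mean of 108 CPM from 10425 UMIs (10226 to 10627). By d8 the median had dropped to 4.53 CPM and the highest cell to 85.2 CPM, with a mean of 12.2 CPM. Thus even the highest cell of d8 lay under the mean of d2. At d12 the mean was back at 75.2 CPM, and every one of the 67 cells had a UMI. At d20 the median cell had 1.53 CPM and the highest 691 CPM, which alone brought the mean from 15.6 to 33.3 CPM.

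*Dusp4*, a nuclear phosphatase of ERK and other MAP kinases, showed the same low phase at a lower level. Its mean was 14.1 CPM at d0, 18.5 CPM at d1 and 10.9 CPM at d2. It then fell to 1.35 CPM at d6p and 0.656 CPM at d8, where 1 cell held 90.5% of the summed CPM and 9.68% of the cells had a UMI. At d12 the mean was 36.6 CPM, with 0, 14.8 and 283 CPM in the lowest, median and highest cell, and 94.0% of the cells had a UMI. The gene was thus nearly silent at d8 and highest at d12. At d20 it was again found in few cells (7.89%; interval 1.66 to 21.4). *Dusp5*, a nuclear phosphatase of ERK, had 1 UMI at d1, 1 at d2 and 9 at d12, and none at d0. A count of 0 in 72 cells limits the share of cells with a UMI to 4.17%, but not the share expressing the gene.

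Sprouty proteins inhibit the signalling of receptor tyrosine kinases. *Spry2* had 0, 83.4 and 1071 CPM in the lowest, median and highest cell at d0, with a mean of 137 CPM. It fell to means of 25.6 CPM at d3 and 25.8 CPM at d4, reached 156.5 CPM at d12 and was at 30.0 CPM at d20. *Spry4* ran differently. Its CPM at d0 were 0, 5.65 and 263 in the lowest, median and highest cell, with a mean of 28.5 CPM. At d12 the lowest cell had 3.40, the median 115.5 and the highest 828 CPM, with a mean of 162 CPM from 9041 UMIs (8856 to 9229). All 67 cells had a UMI, and every other group had a lower mean. At d20, 9 of 38 cells (23.7%; interval 11.4 to 40.2) had a UMI, and the mean was 5.85 CPM. After thinning, the shares of cells with *Spry4* were 83.3% at d12 and 16.7% at d20.

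*Spry1* went the other way. At d0 the lowest, median and highest cell had 0, 14.6 and 175 CPM, with a mean of 34.0 CPM from 1458 UMIs. After 1 day of treatment the mean was 3.18 CPM, from 76 UMIs (59.9 to 95.1), and the highest cell had 47.4 CPM. It was 10.7 times lower than at d0, although the cells of d1 were more deeply sequenced. It stood at 23.6 CPM at d5 and was low again at d12 (5.43 CPM), the day on which *Spry2* and *Spry4* were highest. No later group reached the mean of d0.

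*Spred1* encodes an inhibitor that brings the RAS inactivator neurofibromin to the membrane. It had 0, 2.30 and 114.5 CPM in the lowest, median and highest cell at d0 and 0, 33.9 and 136 CPM at d1. The ranges overlap, but the share of cells with a UMI rose from 65.3% to 97.5%, and from 29.6% to 72.5% after thinning. Its mean was 11.5 CPM at d0, 47.9 CPM at d1, 73.5 CPM at d12 and 9.93 CPM at d20.

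**Figure D2:**
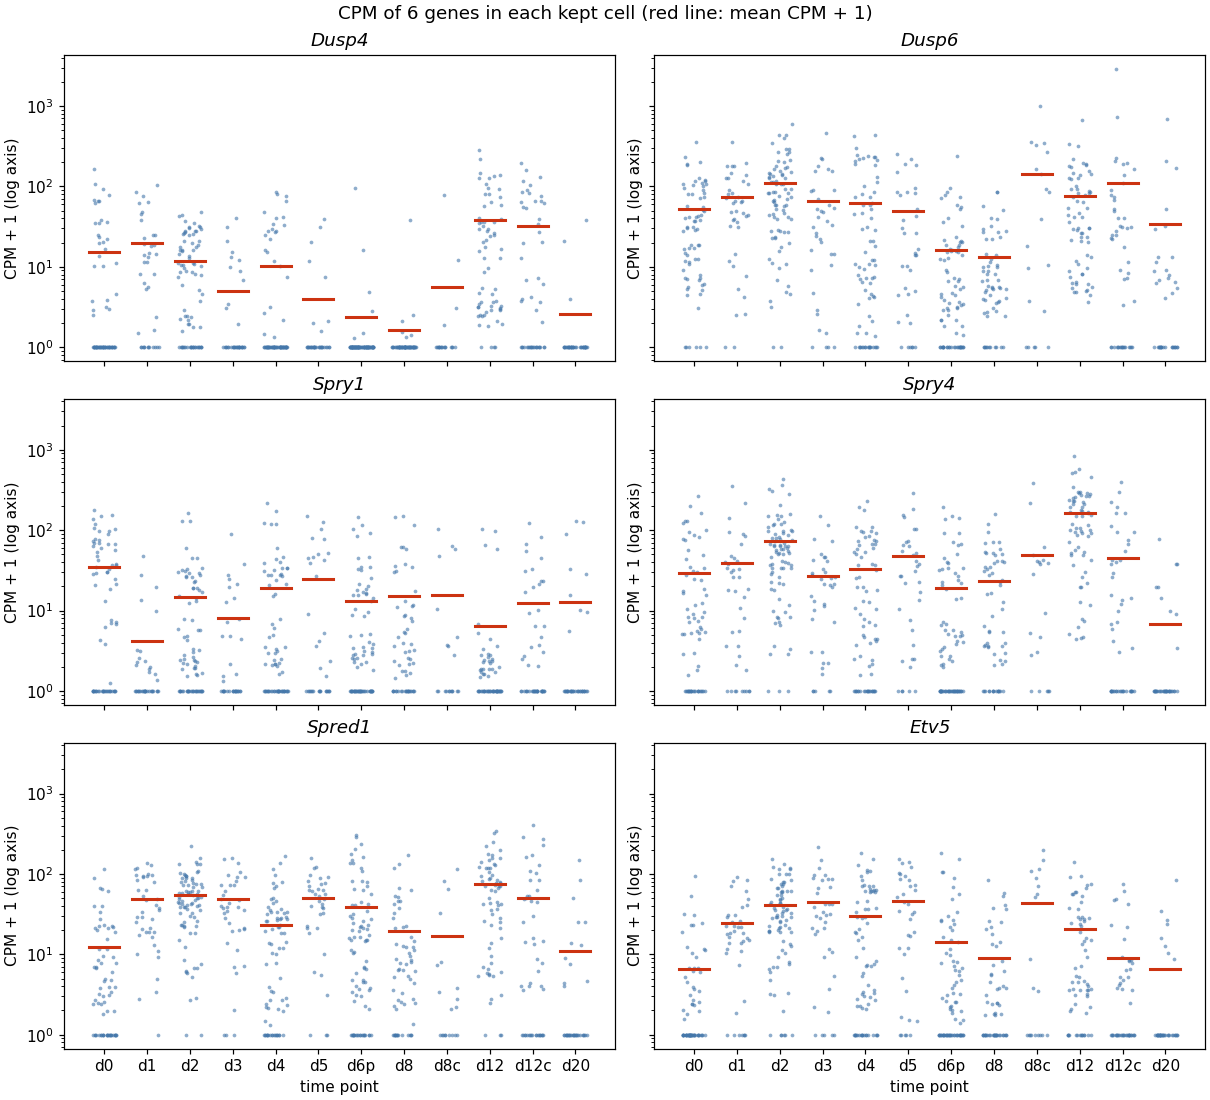
CPM + 1 (log axis) of 6 of the genes in each kept cell, by time point; each point is 1 cell and the red line is the mean CPM + 1. *Spry1* drops at d1, *Dusp4* and *Dusp6* are low at d6p and d8, and *Spry4* is highest at d12.

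The 3 *Etv* genes rose together in the first days. *Etv5* had 0, 0 and 93.6 CPM in the lowest, median and highest cell at d0, with a mean of 5.53 CPM. The median cell had 17.1 CPM at d1, 28.8 CPM at d2 and 31.9 CPM at d5, where the mean was 45.2 CPM. It had dropped to a mean of 8.12 CPM at d8, came back to 19.7 CPM at d12 and was 5.48 CPM at d20, close to d0. The mean of *Etv4* was 5.03 CPM at d0, 22.1 CPM at d2 and 16.9 CPM at d5, but 2.82 CPM at d8 and 4.30 CPM at d12. In the 20 colony-picked cells of d8c it was 19.2 CPM, with a median cell at 0 and UMIs in 30.0% of the cells, and 13.2 CPM without the highest cell. Hence *Etv4* stayed low on the day on which *Spry2* and *Spry4* were highest.

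*Etv1* had UMIs in 19.4% of the cells at d0 (5.63% after thinning) and in 52.5% at d1 (30.0% after thinning), with means of 2.61 and 16.0 CPM. It had its highest mean at d6p, 23.7 CPM, which fell to 13.9 CPM without the highest cell (858 CPM). At d20 all 13 UMIs came from 1 of 38 cells.

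Counted over all genes, a gene was called higher or lower where its mean log2(CPM + 1) differed by over 1 between groups of cells. Only genes whose mean reached 1 in 1 of the groups were tested. Such a call describes these cells and is no test. The 5 comparisons with d0 share the d0 cells, and those with d12 the d12 cells. At d1, 5 of the 9 genes tested were higher than at d0 (*Dusp4*, *Spred1*, *Etv1*, *Etv4* and *Etv5*), against 19.3% of all 9441 genes, and *Spry1* was lower, against 4.57%. The differences were 2.81 for *Spred1*, 2.35 for *Etv5* and -2.37 for *Spry1*, beside a median of 0.43 over all genes. *Spred1* had the 32nd largest rise of all genes tested and *Etv5* the 82nd. Those of *Dusp4* (1.09) and *Etv4* (1.33) were not called after thinning.

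At d3, *Spred1*, *Etv1*, *Etv4* and *Etv5* were higher than at d0 (4 of 9 genes, against 26.7% of all genes). *Etv5* was 7.88 times and *Spred1* 4.10 times as high in mean CPM. *Spry1* and *Spry2* were lower (2 of 9, against 6.05%), with *Spry2* 5.36 times lower. By d8 none was higher (0 of 9, against 17.1%), and *Dusp4*, *Dusp6*, *Spry1* and *Spry2* were lower (4 of 9, against 13.7%). *Dusp6* was 4.18 times lower and *Spry2* 1.84 times lower than at d0. Within d8 the means of *Spry2* were 31.0 CPM in cells numbered 1 to 48 and 165 CPM in those numbered 49 to 72, and *Spry2* was not called between the cells numbered above 48 of both days.

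At d12, *Dusp4*, *Spry4*, *Spred1* and *Etv5* were higher than at d0 (4 of 9, against 19.8% of all genes), and *Spry1* was lower (1 of 9, against 16.3%). *Spry4* was 5.67 times and *Spred1* 6.40 times as high, and *Dusp4* 2.61 times. At d20, none was higher than at d0 (0 of 8, against 15.0%) and *Dusp4*, *Dusp6*, *Spry1*, *Spry2* and *Spry4* were lower (5 of 8, against 25.1%). *Dusp6* had a difference of -2.47 but was only 1.53 times lower in mean CPM, since 1 cell held much of the d20 mean.

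Between d12 and d20 the fall was broadest. *Dusp4*, *Dusp6*, *Spry2*, *Spry4*, *Spred1* and *Etv5* were lower at d20 (6 of 8 genes, against 30.9% of all 9749), and none was higher (0 of 8, against 20.5%). In mean CPM, *Spry4* was 27.7 times, *Dusp4* 23.4 times and *Spred1* 7.41 times lower. The median difference of the 8 genes was -3.23, and that of all genes was -0.20. With TMM factors, 36.5% of all genes were lower and 15.6% higher, and the same 6 genes were called. The d20 cells had less depth, and after thinning the same 6 genes were again lower, against 25.1% of all genes. Fibroblast markers fell in the same comparison, all 7 of them, and 6 of 7 XEN markers rose. Their part in the fall of the ERK target genes was not tested.

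**Figure D3:**
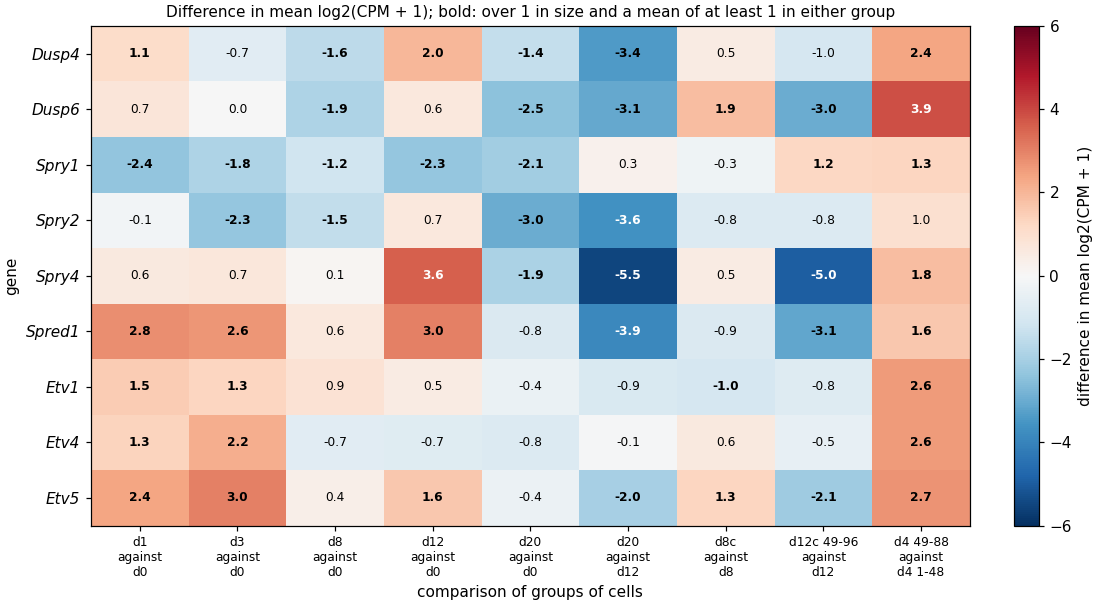
Difference in mean log2(CPM + 1) of 9 genes (rows, *Dusp5* left out) in 9 comparisons (columns); red is higher and blue lower in the first-named group, and bold numbers are called. *Spry4* at d20 against d12 is the largest fall, and 8 of 9 genes are higher in d4 cells 49 to 88.

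Day 4 held cells of unlike levels. The running numbers of its cells fall into a range of 1 to 48 (40 kept cells) and one of 49 to 88 (37 kept cells), and the labels do not say what the number stands for. *Dusp6* had 0, 1.92 and 72.4 CPM in the lowest, median and highest of the cells 1 to 48, with a mean of 7.58 CPM. In cells 49 to 88 these were 0, 73.3 and 437 CPM, with a mean of 117 CPM, which is 15.4 times as high. The median cell of the upper range thus exceeded the highest cell of the lower one. *Dusp4* was at 0.465 against 18.7 CPM, *Etv4* at 1.5 against 19.7 CPM, *Etv1* at 4.65 against 22.6 CPM and *Etv5* at 11.8 against 47.6 CPM. Summarised, 8 of 9 genes tested were higher in the upper range, against 12.1% of all 9898 genes, and none was lower (0 of 9, against 9.33%). *Dusp6* had the third largest difference of all genes, 3.87. Only *Spry2* was not called, with a difference of 0.98. This comparison was chosen after the levels had been seen.

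The upper range of d4 was less deeply sequenced (median 322066 UMIs) than the lower one (778218 UMIs). After thinning, the same 8 genes were called, and *Spry2* as well, against 20.7% of all genes higher in that setting. Other genes differed as well: 4 of the 7 fibroblast markers were lower in the upper range (*Col1a1*, *Col1a2*, *Col3a1* and *Fbn1*), with a median summed level of 1799 against 5152 CPM. *Cd68*, *Myog* and *Acta1* were higher. Of 7 other genes induced by ERK, *Phlda1*, *Epha2*, *Ccnd1* and *Ier3* were higher and none was lower. The part of the running number, or of what it stands for, in these differences was not tested. A mean over all d4 cells, such as the 60.2 CPM of *Dusp6*, lies between the levels of both ranges. At d0, d2, d6p, d8 and d12 the means of *Dusp6* in the ranges differed less, with 60.8 against 36.6 CPM at d0 and 87.2 against 132.5 CPM at d2.

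**Figure D4:**
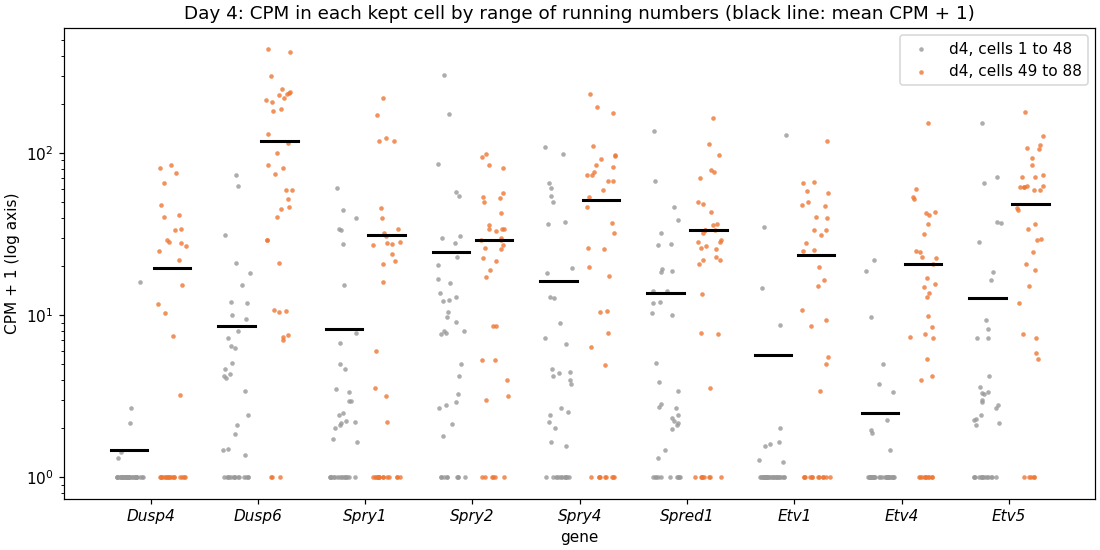
CPM + 1 (log axis) in each kept d4 cell for 9 genes, with cells numbered 1 to 48 in grey and 49 to 88 in orange; each point is 1 cell and black lines are mean CPM + 1. For *Dusp6*, *Dusp4*, *Etv1*, *Etv4* and *Etv5* the orange cells lie above the grey ones in most cases. For *Spry2* the ranges overlap, with medians of 6.95 CPM in grey and 24.8 CPM in orange and highest cells of 303 and 98.3 CPM.

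Colony-picked cells at d8c differed from d8 in *Dusp6* and *Etv5*. *Dusp6* had 0, 28.0 and 1008 CPM in the lowest, median and highest of the 20 cells at d8c, against 0, 4.53 and 85.2 CPM at d8. Its mean was 143 CPM against 12.2 CPM, and 97.3 CPM without the highest cell. *Etv5* had a mean of 42.2 CPM against 8.12 CPM, but the median cells had 2.62 and 0.847 CPM, so that few d8c cells carried the mean. Both were called higher (2 of 8 genes, against 4.59% of all genes), and *Etv1* was lower (1 of 8, against 16.0%). Without the filter on cells, *Dusp6* alone of these 3 was still called. All 7 fibroblast markers were lower at d8c, and none of the 3 XEN markers tested was called.

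Cells numbered 49 to 96 of d12c hold cells with XEN markers at a median of 1068 CPM and fibroblast markers at 17.5 CPM. Against d12, *Dusp6*, *Spry4*, *Spred1* and *Etv5* were lower (4 of 8 genes, against 32.2% of all genes), and *Spry1* was higher (1 of 8, against 17.3%). *Spry4* had 0, 0 and 164 CPM in the lowest, median and highest of the 30 cells, with a mean of 15.3 CPM, 10.6 times lower than at d12. *Spry1* had a mean of 17.3 CPM against 5.43 CPM, and its call was not made without the filter on cells. *Dusp4* and *Spry2* were not called here. With TMM factors, or with no filter on cells, both were called. *Dusp4* was also called with DESeq2 size factors and with a filter of 2000 genes.

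*Dusp6* in these cells depended on 1 cell. The cell numbered 67 had 141 of the 272 UMIs, or 2896 CPM in a library of 48695 UMIs. It also held all 8 UMIs of *Etv1* and all 8 of *Etv4* in this range. The mean of *Dusp6* was 110.5 CPM with it and 14.5 CPM without it, below the 75.2 CPM of d12, and the median cell was at 0. The call of a lower *Dusp6* held without this cell. On the log2 scale of the mean CPM the difference had the opposite sign, at 0.55 in place of -2.98.

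The lower range of d12c had other levels. *Spry4* had 83.8 CPM and *Spred1* 92.2 CPM in cells numbered 1 to 48, against 15.3 and 19.4 CPM in the upper range. *Dusp4* did not split in this way, with 31.1 and 30.6 CPM.

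Shares within the families were taken by plain CPM, in which each UMI counts as 1 molecule, and per transcript length (the longest GENCODE M1 transcript). *Dusp6* led the 3 *Dusp* genes in all 12 groups by both, with between 67.2% at d12 and 96.9% at d8c by CPM. *Spry2* held 68.7% of the Sprouty genes at d0 by CPM (78.0% per length). At d12 *Spry4* and *Spry2* were even by CPM, at 50.0% and 48.3%, while *Spry2* led per length, at 66.8% against 31.4%. By CPM *Spry4* also led at d3 (44.3%), d4 (42.0%), d5 (40.3%) and d8c (57.2%). Its leads at d3 and d5 rested on 1 cell each. Without that cell *Spry2* led *Spry4* by CPM, with 48.96% against 42.04% at d3 and 42.4% against 36.6% at d5. The leads at d4 and d8c held without the highest *Spry4* cell. Per length *Spry4* led only at d8c (40.4% against 39.1% for *Spry2*), which also rested on 1 cell, since without it *Spry2* had 46.7% and *Spry4* 29.3%. Of the *Etv* genes, *Etv5* led by both at d3 (58.7% by CPM, 51.2% per length) and *Etv1* at d8 (54.6% and 48.7%). At d0 *Etv5* led by CPM (42.0%) and *Etv4* per length (51.3%). The lead of *Etv5* by CPM rested on 1 cell, since without it *Etv4* had 40.7% and *Etv5* 36.7%. The lead of *Etv1* at d6p (55.6% by CPM, 49.2% per length) rested on 1 cell per length, and was narrow by CPM without it. Then *Etv1* and *Etv5* had 42.2% and 40.9% by CPM, and 36.1% and 37.9% per length. At d8c the share of *Etv1* was 2.25% by CPM and 1.73% per length.

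**Figure D5:**
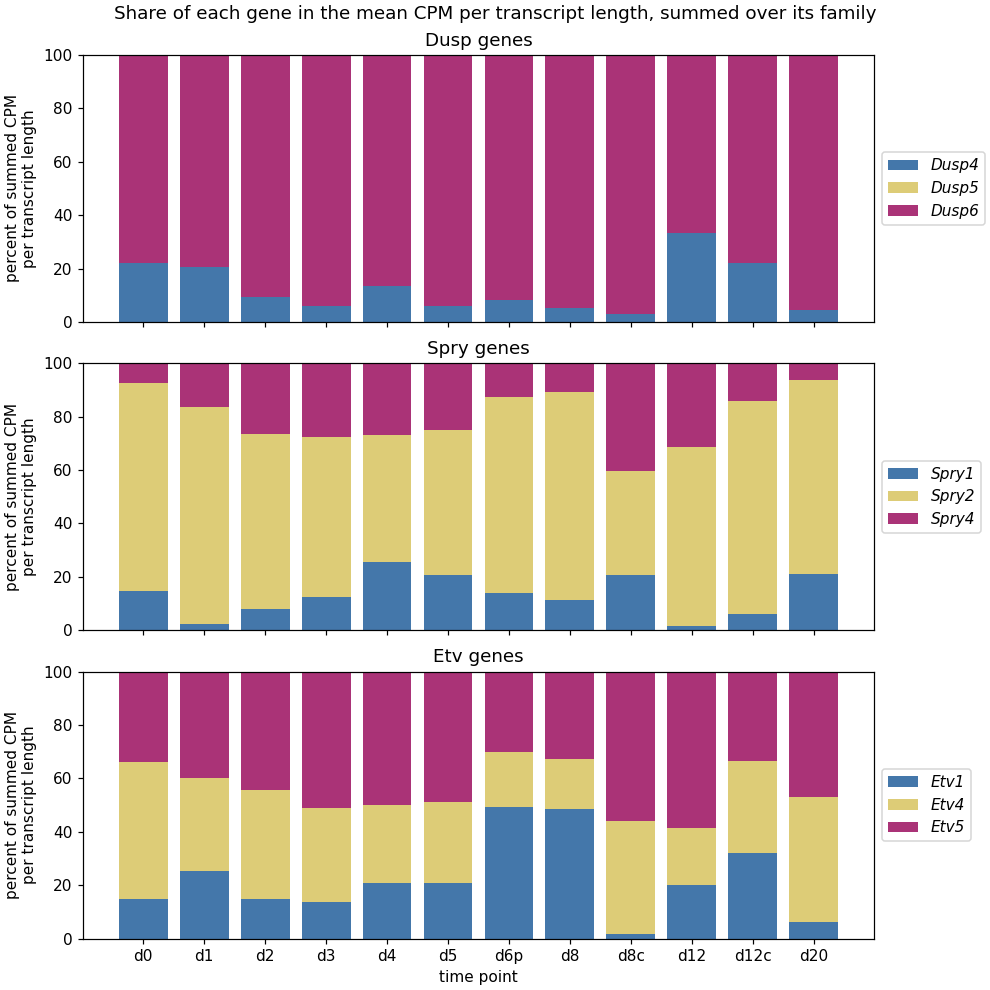
Share of each gene in the mean CPM per transcript length, summed over the *Dusp*, *Spry* and *Etv* genes, at the 12 time points; each bar adds up to 100 percent. *Dusp6* leads in all groups, *Spry2* in all but d8c, and the leading *Etv* gene differs between groups; the lead of *Etv1* at d6p rests on 1 cell (49.2% with it, 36.1% without it).

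Over the 12 groups, the mean log2 levels of *Etv4* and *Etv5* had a Pearson correlation of 0.87, and those of *Dusp4* and *Spry2* of 0.86. *Spry1* had no correlation above 0.07 with any other of the genes. These are descriptions over 12 points that share handling and differ in depth. Among 11302 other genes, the course most like that of *Dusp4* was that of *Slc20a1* (0.97), of *Dusp6* *Arpc1b* (0.91), of *Spry1* *Ddit3* (0.91), of *Spry2* *Lrrc8c* (0.93) and of *Spry4* *Zbtb1* (0.93). For *Spred1* it was *Trak2* (0.95), for *Etv1* *Hps6* (0.97) and for *Etv5* *Ubqln4* (0.95). For *Etv4* the first entry had a date in place of its name, and the next was *Ss18* (0.95).

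Among the cells of 1 time point, most pairs of the genes were weakly correlated. Spearman correlations over pairs found in at least 50% of the cells had medians between -0.07 and 0.29. The highest were those of *Dusp6* with *Etv5* at d8c (0.70 over 20 cells), *Dusp6* with *Etv4* at d3 (0.60 over 38 cells) and *Spry4* with *Spred1* at d12c (0.58 over 51 cells) and d12 (0.56 over 67 cells). At d8c, *Dusp6* itself had a correlation of 0.50 with depth. *Dusp6* with *Etv5* at d4 (0.57 over 77 cells) pools both number ranges.

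In the cells of d3 to d8c, 22 had the XEN factor *Sox17* at 20 CPM or more and 207 had no UMI of it. *Spry2* had a mean of 22.1 CPM in the first and 63.5 CPM in the latter, weighted to the same time points, and *Spry4* 14.8 against 38.0 CPM. Without weighting, the medians were 11.03 against 17.08 CPM for *Spry2* and 1.98 against 6.18 CPM for *Spry4*. The weighting was by time point only and did not separate the number ranges within d4 or d8. *Dusp6* had 66.5 against 47.9 CPM, with medians of 9.63 and 9.06 CPM without weighting. *Spred1* (32.5 against 30.2 CPM) and *Etv5* (23.4 against 27.7 CPM) were closer.

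Other genes of the pathway were counted from lists. Of other inhibitors, 7 of 11 tested were higher at d12 than at d0 (against 19.8% of all genes) and none was lower (against 16.3%): *Dusp1*, *Dusp2*, *Dusp7*, *Dusp9*, *Dusp10*, *Dusp14* and *Errfi1*. Between d12 and d20, 4 of 11 were lower (*Dusp1*, *Dusp7*, *Dusp10* and *Errfi1*, against 30.9%) and 1 was higher (against 20.5%), a share near the background in the first case. *Errfi1*, a feedback inhibitor of the EGF receptor, had a mean of 2245 CPM at d12, 85.3 CPM at d0 and 16.4 CPM at d20. Of 7 other genes induced by ERK, *Phlda1*, *Epha2*, *Ier3* and *Myc* were higher at d12 than at d0 (4 of 7, against 19.8%), and *Epha4* and *Ccnd1* were lower (2 of 7, against 16.3%). *Phlda1* had 43.2 CPM at d0, 1477 CPM at d12 and 40.7 CPM at d20. Between d12 and d20, 5 of the 7 were lower (*Phlda1*, *Epha2*, *Ier3*, *Egr1* and *Myc*, against 30.9% of all genes) and *Epha4* was higher (against 20.5%). The inhibitor that was higher at d20 than at d12 was *Dusp9*, a phosphatase of ERK, with 73.9 against 60.4 CPM and a difference of 1.97.

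The receptors and ligands changed too. Of 8 receptors tested between d12 and d20, *Fgfr1*, *Fgfr2*, *Pdgfra*, *Pdgfrb* and *Egfr* were lower at d20 (5 of 8, against 30.9% of all genes), and *Fgfr4* and *Kit* were higher (2 of 8, against 20.5%). *Fgfr1* had means of 113 CPM at d12 and 12.9 CPM at d20, and *Kit* of 8.82 and 53.1 CPM. *Fgf7*, a ligand made by mesenchymal cells, had 103 CPM at d12 and no UMI at d20. *Pdgfra* had 28.2 CPM at d0 and 119 CPM at d1, a difference of 2.53.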

How the data were processed

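Single-cell RNA sequencing of hand-picked cells was used. The count table was deposited by the authors as UMI counts per gene and cell, after de-duplication by UMI and mapping to the mm9 transcriptome. The aligner is not given in the sources used here. The series lists 10 samples, but no cell could be assigned to any, so the table was treated as 1 sample and no p-value was computed. Of 23293 rows, 92 spike-in (ERCC) rows, which held 5.43% of the counts of kept cells, and 4 rows with repeated names were left out, and dates stood in place of 22 gene names. A cell needed 4000 detected genes, and kept cells had a median of 510306 UMIs (17633 to 6004864). Doublets were not called, since cells were picked by hand.

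CPM were computed over the 23197 genes. Calls needed a difference of over 1 in mean log2(CPM + 1), with a pseudocount of 1, and a mean of 1 or more in 1 of the groups. Calling was tried on simulated counts with large changes and Poisson error only. This does not cover the spread between cells or differences close to the threshold. For shares, cells were thinned to 50000 UMIs, and the 23 shallower ones were left out. Where no cell had a UMI, the limit given is 3 cells of the total. No ratio was formed with 3 or fewer UMIs in a group. All 10 genes are named. For each of them with a range of over 2 in mean log2(CPM + 1), the genes with the most similar course were taken, and other genes come from lists of the pathway and of cell type markers. The genes and lists were chosen with earlier results of these data known, and so was the number range of d12c. The comparison within d4 was added after its levels had been seen. Alternatives covered the filter on cells, scaling (TMM factors of edgeR 4.0.16, size factors of DESeq2 1.42.0, on R 4.3.3), pseudocount, thinning, the filter on genes, number ranges and the size of the difference. Other steps used Python 3.11.15, pandas 2.3.3 and scipy 1.17.1.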

Additional observations from a re-analysis of the deposited data

How the results depend on the processing

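No paired analysis was possible because the cell names carry neither sample nor replicate. Of 48 calls in 9 comparisons, TMM factors and DESeq2 size factors kept all 48, and added 2 and 1 calls. These factors were those of whole time points. Both ranges of d4 shared the same factor, so the calls between them could hardly change. The d12c cells 49 to 96 took the factor of all d12c cells. A filter of 2000 genes kept 46, thinning and no filter on cells 45 each, and a filter of 6000 genes and the log2 of the mean CPM 44 each. Leaving out the cell with the highest summed level in each group, chosen after seeing the data, kept 48 and added 3. Each group held at least 20 cells, so 1 cell could move a mean log2 level only a little. A pseudocount of 10 kept 28. Percentages in brackets are the shares of all genes called in the same setting. With this pseudocount, genes called higher against d0 were 2 at d1 (3.35%), 2 at d3 (5.31%) and 2 at d12 (7.70%). Those called lower against d0 were 1 at d3 (2.81%), 2 at d8 (5.39%) and 2 at d20 (8.15%). It called 1 higher (1.66%) and 0 lower (2.89%) at d8c and 0 higher in d12c cells 49 to 96 (8.89%). A difference of over 2 gave 2 higher at d1 and 2 at d12, 1 lower at d3, 0 at d8 and 3 at d20 against d0, 0 higher and 0 lower at d8c, 0 higher in d12c cells 49 to 96, and 5 higher in the upper range of d4. Thinning left 3 higher at d1. The log2 of the mean CPM gave 1 higher at d8 (19.9%), and 5 higher (14.7%) and 2 lower (21.0%) at d8c. It reversed *Dusp6* in d12c cells 49 to 96, from -2.98 to 0.55, which came from 1 cell. No filter on cells, or one of 2000 genes, left 1 higher at d8c (3.75% each). Without a filter, or with one of 6000 genes, 0 were higher in d12c cells 49 to 96 (7.63% and 24.1%). With 6000 genes 2 were lower at d12 (21.3%). In cells numbered 1 to 48, 1 was higher at d8 (22.3%). In those above 48, 1 was higher at d8 (13.6%), 2 were lower at d12 (18.5%), and 4 were higher (11.6%) and 2 lower (11.6%) at d8c. Groups without at least 10 kept cells in each range (d1, d3, d8c and d20) and d12c cells 49 to 96 were taken whole, so at d8c only the d8 cells were cut. Except where said, the cause was not tested. TMM factors moved the median difference of all genes by over 0.1 in 4 comparisons: from -0.20 to -0.50 at d20 and from -0.34 to -0.52 in d12c cells 49 to 96, both against d12, and from -0.01 to 0.12 at d12 and from -0.20 to -0.36 at d20 against d0. DESeq2 size factors did so in 3, to -0.42, -0.48 and 0.11, in the first 3 of these. The family shares without 1 cell were also taken after seeing the data. Groups with few cells, such as the 20 of d8c, and the low depth of d20 limit what these counts can show.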

Other observations

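Of 7 other ETS factors tested between d12 and d20, *Ets1*, *Ets2*, *Elk1* and *Elk3* were lower at d20 (4 of 7, against 30.9% of all genes) and *Erf*, a repressor of the ETS family that ERK keeps out of the nucleus, was higher (1 of 7, against 20.5%). *Ets2* had means of 7.76 CPM at d0, 51.1 CPM at d8, 70.8 CPM at d12 and 15.9 CPM at d20. It was thus high at d8, where *Etv4* and *Dusp6* were low. *Erf* had 8.97 CPM at d0, 0.455 CPM at d12 and 16.8 CPM at d20.

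Of the kinases and adaptors of the cascade, 8 of 17 tested were lower at d20 than at d12 (against 30.9% of all genes) and none was higher (against 20.5%). With so large a background, these counts are given as a description only. In the ranges of d4, none of 17 was called in either direction (against 12.1% of all genes higher and 9.33% lower), while 8 of the 9 ERK target genes were higher.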
